A study of Triticum aestivum with 4 samples.

Results

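A set of 112 probe sets gave a far stronger signal in roots of the wheat cultivar Luohan No.2 than in roots of Chinese Spring, both in tap water and under osmotic stress, and was limited by the choice to at most a 2-fold change with the stress. They were chosen from 61115 probe sets on a 1-colour Affymetrix wheat array. A probe set is a group of short oligonucleotides that report 1 transcript sequence, and its signal is a brightness on a linear scale. With signals below 25 raised to 25, a member had to reach 100 on both Luohan No.2 arrays, to be at least 4-fold brighter there than in Chinese Spring both in tap water and in polyethylene glycol (PEG), and to differ by at most 2-fold between PEG and water within each cultivar. These thresholds used all 4 arrays, so the levels and differences given here describe the chosen probe sets and carry no test. Of 113 probe sets that met them, 1 annotated to Hmgb3 was left out by the rule and none to PR5.

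The study kept seedlings of Luohan No.2 and Chinese Spring, both common wheat (Triticum aestivum), in dishes of water to the stage of 2 leaves. The groups were Luohan No.2 in tap water, Luohan No.2 in PEG 6000 at an osmotic potential of -0.49 MPa for 6 h, Chinese Spring in tap water and Chinese Spring in the same PEG solution for 6 h. Total RNA of roots from each group was hybridised to 1 array, so no spread between plants or arrays can be given, and the labels do not say how many seedlings entered a sample. With 1 array for each group, cultivar and array cannot be told apart within a condition. The number of arrays limits the precision of every value.

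Bread wheat carries several related genomes, and most of its genes exist as homoeologues, which are near-identical copies on matching chromosomes. Cultivars can carry different alleles of a copy or lack a copy, and an oligonucleotide array reads both the amount of a transcript and how well its sequence matches the probes. In these data a missing or different allele and a lower transcript level cannot be told apart. Chinese Spring is the cultivar of the wheat reference genome. PEG of high molecular weight holds water back in the medium, does not enter the root cell freely and is used to imitate drought.

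The 4 arrays were alike in overall scale but not in the low range. The 2% trimmed mean was 100.02 on each array. At the median probe set, however, Luohan No.2 stood at 13.5 in water and 13.9 in PEG, against 20.3 and 20.2 for Chinese Spring. The 5' end of the sucrose synthase control gave 0.0216 to 0.0554 of the signal of its 3' end in Luohan No.2 and 0.0693 to 0.0805 in Chinese Spring, a ratio that drops as RNA breaks or labelling stops early. Each marker gene, here and in the dehydration list below, was read from its brightest probe set, even where it had several. Of 7 genes of photosynthesis and plastids, taken as markers of green tissue, 4 were at least 2-fold brighter in Chinese Spring in both conditions. Their summed signal was 2747.4 to 2969.0 on the Luohan No.2 arrays and 8136.8 to 8709.1 on the Chinese Spring arrays, most of it from rbcl. Without rbcl it was 88.8 (water) and 69.1 (PEG) for Luohan No.2, against 702.1 and 372.2 for Chinese Spring. Of the genes in these Luohan No.2 sums, only PsbO in water, at 50.3, was above 25, so the sums are no measured level. On both Luohan No.2 arrays 5 of the 7 stayed at or below 25, namely PsbP, petC, PRK, Trx-M and FBP. Of 3 root-active genes, TaDMAS1 had 419.3 and 347.4 in Luohan No.2 against 318.6 and 295.4 in Chinese Spring, and TaPCS1 had 84.9 and 90.0 against 62.0 and 112.9. TaALMT1 was below 25 on both Luohan No.2 arrays and had 27.6 and 66.8 in Chinese Spring. The part of RNA quality and green tissue in the differences below was not tested. In whole roots, fewer cells of a type and less RNA for each cell cannot be told apart.

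Few probe sets had so large a cultivar difference. At a signal of 100 or more on both Luohan No.2 arrays, 236 probe sets were at least 4-fold brighter in Luohan No.2 in water, which is 0.386% of all, and 289 were so in PEG, which is 0.473%. Both lists shared 155 probe sets, or 0.254% of all, which made up 65.7% of the water list and 53.6% of the PEG list. The limit on the change with PEG then removed 17 through Luohan No.2 alone, 13 through Chinese Spring alone and 12 through both, which left the 113, or 0.185% of all probe sets. Exchanging the cultivars in the same rule gave 110 probe sets constantly brighter in Chinese Spring, or 0.180%. These counts stood close to each other when signals were kept as deposited, but not when the arrays were scaled to a common median, which gave 179 for Luohan No.2 and 72 for Chinese Spring.

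**Figure D1:**
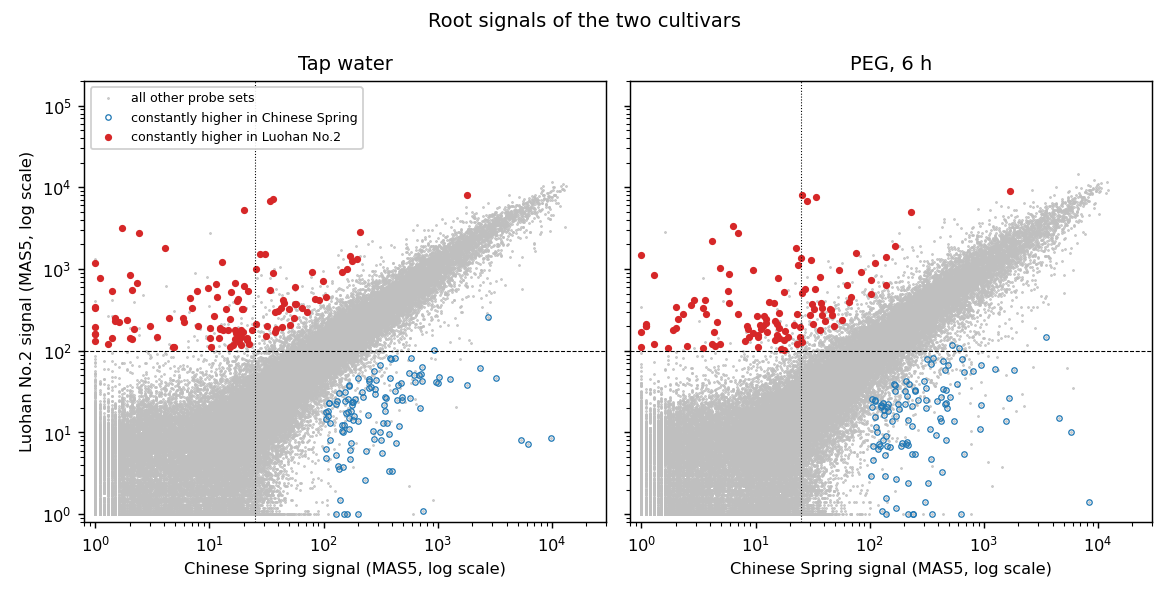
Each point is a probe set, with its signal in Chinese Spring on the horizontal axis and in Luohan No.2 on the vertical axis, both on log scales and with signals below 1 drawn at 1, in tap water on the left and in PEG on the right. Filled red points are the 112 members, open blue points the 110 probe sets constantly higher in Chinese Spring, and grey points all others. The dotted line is the floor of 25 and the dashed line the minimum of 100 for Luohan No.2.

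The members ranged widely in level. In Luohan No.2 their signal ran from 110.1 through a median of 303.5 to 7993.9 in water, and from 103.3 through 275.6 to 8937.2 in PEG. In Chinese Spring it ran from 0.7 through 17.0 to 1789.5 in water and from 0.5 through 15.4 to 1704.8 in PEG. Values below 25 have no order among themselves. On both Chinese Spring arrays 65 members stayed at or below 25, a further 19 did so on 1 of them, and 28 were above it on both. A fold against a signal at or below 25 is a lower bound and is written as at least. The cultivar fold had a median of 7.71 in water and 8.54 in PEG, with such bounds included, or 2.95 and 3.09 on the log2 scale. Over all probe sets above 25 on any array these medians were -0.04 and -0.02.

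By the smaller of its folds in water and PEG, 46 members were at least 8-fold brighter in Luohan No.2, 21 at least 16-fold, 12 at least 32-fold and 5 at least 100-fold. Another 44 stayed under 8-fold in each condition. The log2 folds in water and in PEG correlated at r = 0.914 (Spearman 0.774) across the 112 members. Members share these 4 arrays, and the rule limits how far the folds can differ. For the 65 members at or below 25 on both Chinese Spring arrays, both folds divide by the same floor. The rule and the floor thus favour a high correlation. The median absolute difference between both log2 folds was 0.36 and the largest was 1.47.

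**Figure D2:**
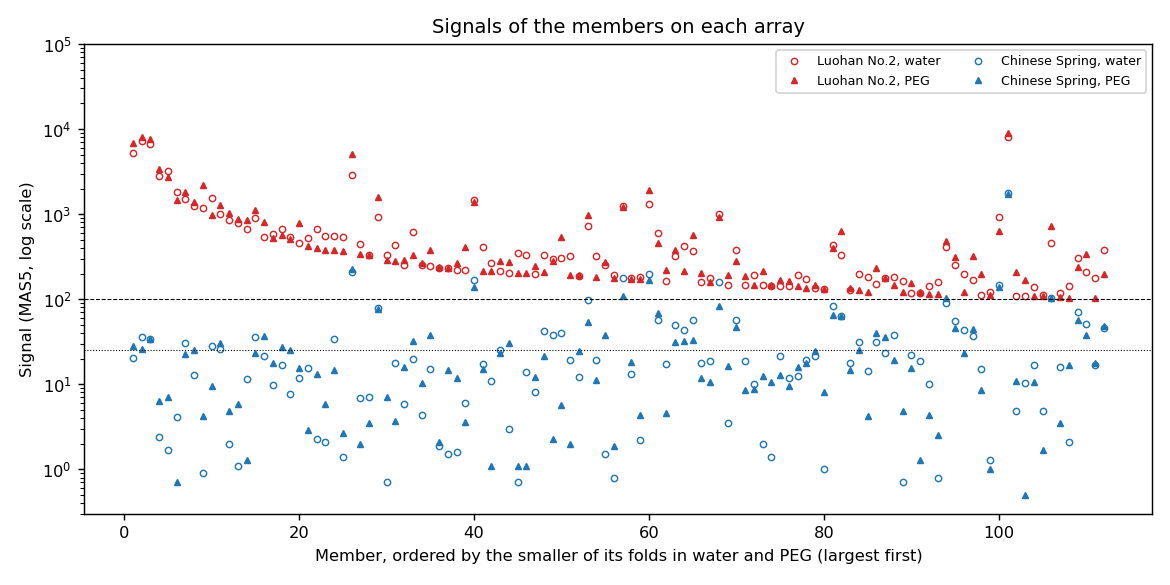
The horizontal axis orders the 112 members by the smaller of their folds in water and PEG, the largest first, and the vertical axis gives the signal on a log scale. Red marks are Luohan No.2 and blue marks Chinese Spring, with open circles for water and filled triangles for PEG. The dotted and dashed lines mark 25 and 100. All red marks lie above the dashed line by the rule, and the blue marks of 65 members lie at or below the dotted line on both arrays.

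By the smaller of the folds in water and PEG, the sequence Ta.18957.1 held the ranks 1 and 3 through 2 probe sets, which share the sequence and are not independent, and Ta.24639.2 held rank 2. Probe set Ta.18957.1.S1_x_at had signals of 5247.1 and 6815.0 in Luohan No.2 in water and PEG, against 20.1 and 28.2 in Chinese Spring. Its fold was at least 209.9 in water and 241.7 in PEG. Probe set Ta.18957.1.S1_at had 6723.7 and 7665.4 in Luohan No.2 against 34.0 and 33.6 in Chinese Spring, which is 197.8-fold and 228.1-fold. A second sequence of the cluster followed the same pattern at a lower level: Ta.18957.2.S1_x_at, also a member, had 407.4 and 213.7 in Luohan No.2 against 17.3 and 15.3 in Chinese Spring. The last probe set of the cluster, Ta.18957.2.S1_at, had 467.6, 220.2, 26.4 and 25.0 in the same order and missed the rule because its Luohan No.2 signal was 2.12-fold lower in PEG. All 4 probe sets of this cluster were thus bright in Luohan No.2 and at or near the floor in Chinese Spring.

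The cluster Ta.24639 behaved differently within itself. Probe set Ta.24639.2.S1_at had 7227.7 and 8113.8 in Luohan No.2 in water and PEG, against 35.8 and 25.7 in Chinese Spring, a 201.9-fold and a 315.7-fold difference. Its partner on the same sequence, Ta.24639.2.S1_x_at, had 7993.9 and 8937.2 in Luohan No.2, the highest mean of all members, but 1789.5 and 1704.8 in Chinese Spring, so its fold was 4.47 and 5.24. The ending _x_at marks probes that can also bind other transcripts. The other sequence of this cluster was bright in both cultivars: Ta.24639.1.S1_x_at had 10516.4 and 12148.6 in Luohan No.2 against 11988.5 and 9170.0 in Chinese Spring. Ta.24639.1.S1_a_at had 10184.7, 9072.9, 10510.8 and 5605.0 in the same order. In this cluster 1 sequence differed more than 200-fold by 1 of its probe sets, while another differed by less than 2-fold.

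The next members were bright in Luohan No.2 and below 25 in Chinese Spring. Ta.28251.1.S1_at had 2782.4 and 3350.9 in Luohan No.2 against 2.4 and 6.4 in Chinese Spring, which is a fold of at least 111.3 in water and 134.0 in PEG. Ta.28347.1.S1_s_at had 3192.7 and 2747.6 against 1.7 and 7.0, at least 127.7-fold and 109.9-fold. Ta.7509.3.S1_at had 1809.1 and 1472.5 against 4.1 and 0.7, at least 72.4-fold and 58.9-fold. For these 3 the Chinese Spring signal was below the floor on both arrays, so all their folds are lower bounds.

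The remaining 6 of the 12 members with the largest folds were all at or below 30.7 in Chinese Spring. Ta.28135.1.S1_at had 1518.8 and 1806.7 in Luohan No.2 against 30.4 and 22.5 in Chinese Spring, 49.96-fold and then at least 72.3-fold. Ta.28246.1.S1_at had 1007.7 and 1276.2 against 25.8 and 30.7, 39.1-fold and 41.6-fold. Ta.28246.1.S1_at was the only one of these 6 above 25 on both Chinese Spring arrays. Ta.18729.1.S1_s_at had 1235.3 and 1381.4 against 12.9 and 25.0, at least 49.4-fold and 55.3-fold. Ta.13165.2.S1_at had 1176.8 and 2195.4 against 0.9 and 4.2, at least 47.1-fold and 87.8-fold, and its Luohan No.2 signal was 1.87 times higher in PEG, near the limit of the rule. Ta.19558.1.S1_at was lower in PEG in Luohan No.2, with 1535.1 and 981.0 against 27.9 and 9.5, which is 55.0-fold and at least 39.2-fold. Ta.9481.2.S1_at had 851.1 and 1019.6 against 2.0 and 4.9, at least 34.0-fold and 40.8-fold.

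Not every bright member was near the floor in Chinese Spring. Ta.5317.1.S1_at, among the 8 brightest members, had 2879.1 and 5052.6 in Luohan No.2 against 210.1 and 228.9 in Chinese Spring, 13.7-fold and 22.1-fold. Including Ta.24639.2.S1_x_at, 7 members were above 100 on both Chinese Spring arrays, and the other 5 had folds between 4.35 and 11.5. Of these, 4 were named after their values were seen, and Ta.27445.1.S1_at because it lay just inside the threshold in water. Ta.27148.1.S1_at had 1456.2 and 1386.7 against 169.9 and 139.8. Ta.27034.1.S1_at had 1316.9 and 1938.4 against 195.8 and 168.3. Ta.27235.1.S1_s_at had 1237.7 and 1201.4 against 177.6 and 110.3. For these probe sets the Chinese Spring level was well above the floor, so their folds are measured on both sides. Another probe set on the sequence of Ta.27235.1.S1_s_at, Ta.27235.1.S1_at, was much dimmer, with 134.7 and 19.4 against 3.4 and 7.3. Ta.10613.1.S1_x_at had 928.0 and 631.2 against 145.7 and 140.2, and Ta.27445.1.S1_at had 454.4 and 732.9 against 104.5 and 103.1.

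Members were found at every level of Luohan No.2 signal. Taking the lower of both Luohan No.2 signals, members made up 1.07% of 4104 probe sets between 100 and 200, 1.02% of 3929 between 200 and 500, 0.732% of 1775 between 500 and 1000, 0.729% of 1098 between 1000 and 2000 and 0.853% of 821 above that. Over all 11727 probe sets of at least 100 on both arrays the whole rule kept 0.964%, Hmgb3 included. The corresponding share for the probe sets brighter in Chinese Spring was 0.912% of 12057.

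The 112 members fell into 101 sequence clusters, a cluster being the part of the name before the second dot. Of these, 10 clusters held more than 1 member, 21 members in all, and in 8 of them the members came from 1 sequence and differed only in the ending of the name. Both probe sets of Ta.19222.1 were members: Ta.19222.1.S1_at had 453.6 and 783.6 in Luohan No.2 against 11.7 and 15.7 in Chinese Spring, and Ta.19222.1.S1_x_at had 245.7 and 379.2 against 15.0 and 37.8. Both were higher in PEG in Luohan No.2, by 1.73 and 1.54 times. In the cluster Ta.3830, by contrast, both members were dimmer in PEG in Luohan No.2: Ta.3830.1.S1_a_at had 668.1 and 397.9 against 2.3 and 13.1, and Ta.3830.2.S1_x_at had 268.6 and 213.2 with at most 11 in Chinese Spring. Ta.9481.2.S1_x_at, with 585.8 and 528.0 against 9.7 and 17.6, followed its partner Ta.9481.2.S1_at in the cultivar difference. The pairs of Ta.1326.2, Ta.22656.2, Ta.30399.1, Ta.30538.1 and Ta.4016.1 were dimmer. Ta.1326.2.S1_at had 251.7 and 265.1 against 4.4 and 10.3, while Ta.1326.2.S1_x_at had 435.6 and 397.8 against 83.4 and 65.5. The fold was thus smaller for the probe set marked for cross-hybridisation, as in Ta.24639.2 but not in Ta.18957.1. The members of the other 4 pairs had Luohan No.2 signals between 104.5 and 208.1 and Chinese Spring signals between 1.0 and 19.5.

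The other probe sets in the members' clusters are those that did not pass the rule. Cluster mates on a second sequence that did pass, such as Ta.18957.2.S1_x_at and Ta.3830.2.S1_x_at, were counted as members and are left out here. Of the 101 clusters, 35 held 69 further probe sets. Those built on another sequence of the cluster, which on this array can stand for a homoeologue, a relative or a different stretch of the transcript, numbered 58, and 43 of them were above 25 on an array. Among these 43, 33 were within 2-fold between the cultivars in water and in PEG, which is 76.7% against 77.5% of all 32714 probe sets above 25 on an array. A single one, Ta.22656.1.S1_at, was at least 2-fold brighter in Luohan No.2 in both conditions, or 2.33% against 1.74% of all, with signals of 228.2, 186.5, 89.5 and 62.4. Both shares lay near those of all probe sets at these settings. All probe sets include the members, however, and the 43 do not, so no conclusion is drawn from the likeness. Together with probe sets on a member's own sequence, the number at least 2-fold brighter in Luohan No.2 in both conditions was 4, and it was 10 with a floor at 10 and 30 with the arrays scaled to the same median. The median log2 ratios of Luohan No.2 over Chinese Spring of the 43 were 0.31 in water and 0.30 in PEG. Over all probe sets above 25 on an array they were -0.04 and -0.02, so the 43 leaned slightly to Luohan No.2. For other sequences of the clusters constantly higher in Chinese Spring, the medians of Chinese Spring over Luohan No.2 were 0.03 and -0.16. Of 11 further probe sets built on the same sequence as a member, 8 were above 25 on an array. Among these 8, 3 were at least 2-fold brighter in Luohan No.2 in both conditions, 2 were within 2-fold in both and 3 were neither. Ta.1055.2.S1_x_at had folds of 1.98 in water and 2.72 in PEG, against 7.38 and 18.1 for the member on its sequence. TaAffx.110751.1.S1_x_at had 1.79 and 0.95, against 7.93 and at least 8.32 for its member. For comparison, among 129 other-sequence probe sets of the clusters constantly higher in Chinese Spring, 99 were within 2-fold and 9, or 6.98%, were at least 2-fold brighter in Chinese Spring, against 2.17% of all.

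In 15 clusters, a probe set of another sequence reached 100 on all 4 arrays and so gave a cultivar difference measured on both sides. Requiring 100 in Chinese Spring also favours sequences with a small difference. The 18 members in them had cluster means of at least 2.18 in water and 2.29 in PEG on the log2 scale. The 31 other probe sets had cluster means between -0.61 and 0.89 in water and between -0.71 and 0.85 in PEG. Single probe sets spread more widely, from -0.90 to 1.70 in water and from -1.25 to 0.85 in PEG, and 4 of the 31 were at least 2-fold brighter in Luohan No.2 in 1 of the conditions. They include TaAffx.131916.1.S1_at, 3.26-fold in water and 1.14-fold in PEG, and Ta.23322.1.S1_s_at, 2.50-fold and 1.59-fold. With the minimum of 100 asked of the Luohan No.2 arrays alone, 35 probe sets in 17 clusters remained for comparison, of which 26 were within 2-fold in both conditions and 8 were at least 2-fold brighter in Luohan No.2 in at least 1. In Ta.7509, for example, Ta.7509.1.S1_at had 2120.4 and 2264.7 in Luohan No.2 against 2132.0 and 2223.0 in Chinese Spring, next to the member at 4.1 and 0.7 in Chinese Spring. In Ta.9481, Ta.9481.1.S1_at had 1674.6 and 1529.3 against 2137.9 and 1648.1. In both clusters the cultivars thus differed strongly by 1 sequence and little by another. In Ta.28347, whose member had 3192.7 and 2747.6 in Luohan No.2, Ta.28347.2.S1_at was slightly brighter in Chinese Spring, with 108.7 and 130.8 against 160.2 and 184.8.

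**Figure D3:**
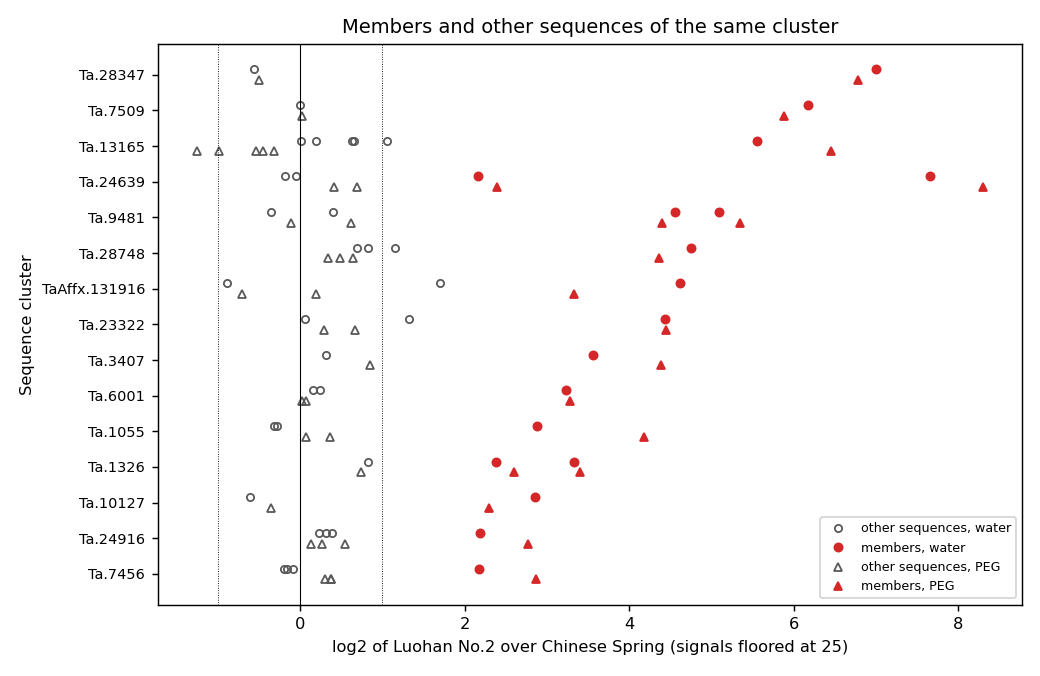
Rows are the 15 sequence clusters in which a probe set of another sequence reached 100 on all 4 arrays, and the horizontal axis is the log2 ratio of Luohan No.2 over Chinese Spring with signals floored at 25. Filled red marks are members and open grey marks the other sequences, with circles for water and triangles for PEG, and dotted lines mark 2-fold. Each mark is a single probe set. Members lie to the right of 2 on this axis by the rule, and the other sequences lie between -1.25 and 1.70.

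Within the 2-fold limit set by the rule, the members did not lean one way with PEG in Luohan No.2. Of 112, 57 were brighter in PEG and 54 dimmer, and the ratio of PEG to water ranged from 0.507 to 1.94 around a median of 1.01. For comparison, LEA1, a late embryogenesis abundant protein made during water loss, went from 47.1 to 743.7 in Luohan No.2 and from 40.5 to 2820.6 in Chinese Spring, and Rab15, a dehydrin, from 17.4 to 577.1 and from 10.1 to 2736.1. COR410, EMH2 and EM, of the same list of 5 dehydration genes, reached at most 27.0 on any array. The ratio lay within 1.25-fold for 49 members and within 1.5-fold for 81. The same 2-fold limit held for 88.0% of all probe sets of at least 100 on both Luohan No.2 arrays, and for Chinese Spring for 87.9% of them. In Chinese Spring the change with PEG can be read only for the 28 members above 25 on all arrays. It had a median ratio of 0.846 there, with 7 of 28 higher in PEG, while in Luohan No.2 17 of the same 28 were higher in PEG. Of all 11592 probe sets of at least 100 on both Luohan No.2 arrays and above 25 on the others, 45.8% were higher in PEG in Chinese Spring and 53.8% in Luohan No.2.

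Among the clusters with a bright probe set of another sequence, the change with PEG in Luohan No.2 could be set beside that of the other sequences. Across the 15 clusters both log2 changes correlated at r = 0.652 (Spearman 0.675), and they had the same sign in 10 of the 15. This is a description: all points share the same 2 arrays, related sequences can share probes, and members were limited to 2-fold. In Ta.13165, whose member went from 1176.8 to 2195.4, Ta.13165.1.S1_at went from 663.0 to 1444.3 in Luohan No.2 and from 428.4 to 1805.2 in Chinese Spring. The member in Ta.13165 stayed at 0.9 and 4.2 in Chinese Spring while the related sequence there was 4.21 times higher in PEG. In Ta.3407, the member Ta.3407.2.S1_at had 929.6 and 1576.6 in Luohan No.2 against 79.1 and 75.7 in Chinese Spring, and Ta.3407.1.S1_at had 303.8 and 494.5 against 244.8 and 274.2. In TaAffx.131916, the member TaAffx.131916.5.S1_at went from 615.9 to 326.5 in Luohan No.2. Of the other sequences there, TaAffx.131916.2.S1_at went from 674.0 to 335.0 and TaAffx.131916.1.S1_at from 426.6 to 994.2, so the cluster was not uniform.

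**Figure D4:**
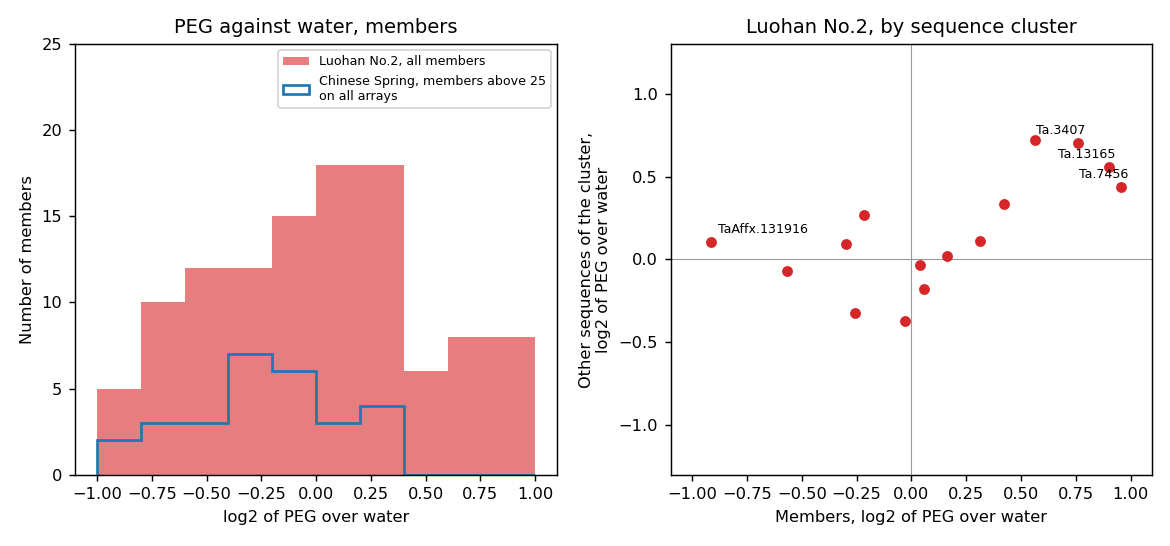
On the left, bars count members by the log2 ratio of PEG over water, filled red for all 112 in Luohan No.2 and outlined in blue for the 28 above 25 on all arrays in Chinese Spring. On the right, each point is 1 of 15 sequence clusters in Luohan No.2, with the members' mean log2 ratio of PEG over water on the horizontal axis and that of other sequences of the cluster on the vertical axis, and the clusters beyond 0.6 on the horizontal axis are named.

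The annotation named only 1 member. Ta.25111.1.S1_x_at is paired with LOC780661, a protein-coding gene at chr7B:763682188-763687589 in the IWGSC CS RefSeq v2.1 assembly, whose function the tables used here do not give. Its signals were 143.0 and 167.5 in Luohan No.2 against 21.2 and 12.7 in Chinese Spring, at least 5.72-fold in water and 6.70-fold in PEG. Its ending _x_at marks probes that can also bind other transcripts. Of the 5 other probe sets paired with this gene, those above 25 on an array did not share the difference. Ta.6293.1.A1_at had 286.5 and 304.1 against 367.7 and 315.0, and Ta.6293.3.S1_s_at had 123.6 and 89.3 against 121.9 and 93.5. Ta.6293.2.S1_a_at had 107.0 and 49.0 against 98.1 and 65.2. The other 2 were below 25 throughout, so they give no cultivar ratio. The probe sets paired with this gene and above 25 on an array thus differed among themselves in the cultivar ratio. Ta.25111.1.S1_x_at met the rule at a floor of 25 but not at 50, where its log2 ratios were 1.52 and 1.74, nor with an 8-fold ratio or a minimum signal of 200.

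Gene entries were rare on this array, with 4.67% of probe sets of at least 100 on both Luohan No.2 arrays having one, against 0.893% of the members. The other 111 members are known here only by the names of their probe sets. The names show that 33 members, or 29.5%, belong to the TaAffx series, against 13.3% of the probe sets of that brightness and 11.8% of the set constantly higher in Chinese Spring. The endings _x_at and _s_at, which mark probes shared between transcripts, were carried by 23 members, or 20.5%, against 28.0% of the probe sets of that brightness. The letter A in place of S in the last part of the name was found in 13.4% of members, 16.8% of probe sets of that brightness and 36.4% of the set constantly higher in Chinese Spring. These shares were not tested, since probe sets of a cluster are not independent.

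Near the thresholds, membership depended on small differences. In water the lowest folds inside were 4.13, 4.23 and 4.35 (TaAffx.108612.1.S1_at, TaAffx.59030.1.S1_s_at and Ta.27445.1.S1_at), and the highest outside were 3.99, 3.96 and 3.90 (Ta.10914.1.S1_at, Ta.26174.1.S1_at and Ta.25549.1.S1_at). In PEG they were 4.08, 4.13 and 4.14 inside (TaAffx.106064.1.S1_at, Ta.22393.1.S1_at and TaAffx.59030.1.S1_s_at) and 3.96, 3.95 and 3.88 outside (Ta.10729.1.S1_a_at, Ta.3247.1.S1_at and Ta.959.1.S1_at). The lowest Luohan No.2 signals inside were 103.3, 104.5 and 107.2 (Ta.22393.1.S1_at, Ta.4016.1.S1_at and Ta.8507.1.A1_at), and no probe set failed by that threshold alone, since a 4-fold ratio over the floor already requires it. The largest changes with PEG inside were 1.97, 1.94 and 1.93 in Luohan No.2 (TaAffx.38635.1.A1_at, Ta.7456.1.A1_at and TaAffx.106064.1.S1_at) and 1.90, 1.83 and 1.74 in Chinese Spring (TaAffx.106441.1.S1_at, Ta.1055.2.S1_at and TaAffx.111581.1.S1_at). Just outside they were 2.03, 2.07 and 2.12 (TaAffx.31556.1.S1_at, Ta.9400.1.S1_at and Ta.18957.2.S1_at) and 2.02, 2.27 and 2.39 (Ta.28584.1.A1_at, TaAffx.84192.1.S1_x_at and TaAffx.81967.1.S1_at).

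The 70 members not named by the rule for naming, described by their range, had the following values. Their Luohan No.2 signals ran from 110.1 through a median of 252.9 to 1456.2 in water and from 109.0 through 255.0 to 1938.4 in PEG. In Chinese Spring the highest was 195.8 in water and 168.3 in PEG, and the medians were below 25. Their folds, bounds included, ran from 4.40 through a median of 7.69 to 31.4 in water and from 4.36 through 8.19 to 44.2 in PEG.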

How the data were processed

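Root RNA of 4 samples was hybridised to 1 array each. The authors deposited a linear intensity for every probe set. The submitters' processing notes name MAS5 without a version. Of 61290 probe sets, 111 AFFX and 64 RPTR controls were set aside, and 61115 were used as deposited, floored at 25. Values below the floor have no order. Groups came from the sample titles. Members and lists were chosen with earlier results of these data known, and the lists for green tissue and roots hold genes named in the annotation. With 1 array for each group, and members chosen on all 4, no test was made. That the rule was applied as written was checked on simulated signals. Named were members with a gene entry, the 12 with the largest smaller fold, the 8 brightest in Luohan No.2, those in clusters with several members, and the 3 probe sets on each side of each threshold. Other names were chosen after their values were seen. Gene names came from the platform annotation, which covers 1273 of these probe sets, with symbols brought up to date from RefSeq (IWGSC CS RefSeq v2.1). No sequences were printed, and detection calls were not used here. Alternatives were 12 settings of the floor, thresholds, scaling and probe set type. Python 3.11.15, pandas 2.3.3 and matplotlib 3.10.9 were used.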

Additional observations from a re-analysis of the deposited data

Results flagged for a closer look

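Among the 28 members above 25 on all 4 arrays, 14 had opposite signs of change with PEG in the cultivars. With 1 array for each group this difference was not tested, and the rule kept every change within 2-fold. The values here are the log2 change with PEG in Luohan No.2 minus that in Chinese Spring. Opposite signs were found in 43.4% of all 19976 probe sets above 25 on every array and in 13 of 29 such probe sets constantly higher in Chinese Spring, so 14 of 28 is near the background. In 12 of the 28, or 42.9%, Luohan No.2 was higher in PEG and Chinese Spring lower. That order was found in 7 of the 29 and in 24.3% of the 19976. It was found in 25.6% of the 11592 such probe sets that had at least 100 on both Luohan No.2 arrays. Members are not independent, since Ta.24639.2.S1_at and Ta.24639.2.S1_x_at, both among the 12, share 1 sequence. Some signs rest on very small changes in Chinese Spring, such as a ratio of PEG to water of 0.994 for TaAffx.72199.1.A1_at, and signals of 104.5 to 103.1 for Ta.27445.1.S1_at and 34.0 to 33.6 for Ta.18957.1.S1_at. The difference was 1.39 for Ta.25543.2.S1_at, whose signals were 370.7 and 566.3 in Luohan No.2 against 57.3 and 33.4 in Chinese Spring. It was 1.29 for Ta.1055.2.S1_at, with 724.3 and 970.0 against 98.1 and 53.6, and 1.11 for TaAffx.108612.1.S1_at. The difference was 0.94 for TaAffx.72199.1.A1_at, 0.87 for TaAffx.61466.1.S1_at, 0.83 for Ta.3407.2.S1_at, 0.78 for Ta.27034.1.S1_at and 0.71 for Ta.27445.1.S1_at. It was 0.65 for Ta.24639.2.S1_at and 0.58 for Ta.24916.1.S1_at. It was smallest for Ta.24639.2.S1_x_at at 0.23 and Ta.18957.1.S1_at at 0.21. The 2 with the reverse order were TaAffx.106064.1.S1_at at -1.05, with 383.3 and 198.4 against 45.3 and 48.6, and TaAffx.14498.1.S1_at at -0.68.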

How the results depend on the processing

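Of 118 values recomputed under 12 settings, 78 stayed close to those reported and 40 moved. Some of the 78 could not move. Dropping the minimum signal changed nothing, since a 4-fold ratio over the floor already requires it. The fold, window and minimum signal do not enter the ratios of LOC780661. Counts were close within 1.5 times, medians within 0.38 on the log2 scale and the share of shared-probe endings within a binomial interval that takes probe sets as independent. A floor at 10 gave medians of 3.79 in water and 3.94 in PEG, 21 members at the floor on both Chinese Spring arrays, 10 other probe sets of the clusters at least 2-fold brighter in Luohan No.2 in both conditions (4 as reported) and 3.72 for LOC780661 in PEG. A floor at 50 gave 66 probe sets constantly higher in Chinese Spring, 1 other probe set and 1.52 and 1.74 for LOC780661, and kept 68 of the 112 members. A floor at 100 gave 42 members in 39 clusters, 28 at the floor, 33 higher in Chinese Spring and 0.52 and 0.74 for LOC780661, and kept 33 of the 112. With 8-fold in place of 4-fold there were 46 members in 41 clusters, 44 higher in Chinese Spring, 28 at the floor and medians of 4.40 and 4.06, and with 3-fold 13 other probe sets. A window of 1.5-fold gave 74 members in 67 clusters and 7 other probe sets, and no window 14 other probe sets. A minimum signal of 200 gave 68 members in 61 clusters, 60 higher in Chinese Spring, 28 at the floor, 1 other probe set and medians of 3.63 and 3.57. Quantile normalization gave 124 members, with all 112 among them, and 8 other probe sets. Scaling to the same median, which raised Luohan No.2 over Chinese Spring by 0.59 in water and 0.54 in PEG on the log2 scale, gave 179 members in 164 clusters, 111 of the 112 among them, 72 higher in Chinese Spring and 30 other probe sets, so 71.3% of calls were for Luohan No.2 in place of 50.5%. The array medians used for this scaling lay below the floor of 25. Without _x_at and _s_at probe sets there were 2 other probe sets and, by construction, a share of 0% of such endings. Apart from the thresholds, the floor and the scaling that define each setting, the cause was not tested. No paired analysis was possible because each group has 1 array, and no replicate could be left out. Signal over background limits the folds of 84 members at or below 25 on a Chinese Spring array to lower bounds.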
